A study of Mus musculus with 9 samples.

Results

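RNA was sequenced in 9 libraries of melanocyte stem cells, which had been purified by fluorescence sorting from skin of Dct-H2B-GFP KI/+ mice. The account below is of the 3 libraries from DMBA-treated mice against the 3 from vehicle-treated mice, 6 of 9 libraries, which were chosen by their treatment label. The remaining 3 libraries came from mice given ionizing radiation (IR, 5 Gy). They share the estimate of spread and serve as a second group against which a DMBA value can be read. All 3 groups carry the same knocked-in reporter, a GFP-tagged histone named after the pigment gene Dct, and the labels used here name no sorting gate or further marker. The labels used here give no dose, route or sampling time for DMBA, and no age, sex or strain. They do not say what the vehicle was, whether IR mice also received it, or whether a library holds cells of 1 animal or of several. The p-values below therefore measure the spread between these libraries, which may be technical. Depth was 6938406 to 7871952 counts in DMBA libraries, 7086109 to 7958389 in IR libraries and 7037979 to 8156905 in vehicle libraries. Levels are in CPM, counts per TMM-scaled library size, always for replicates 1, 2 and 3 in that order.

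DMBA, 7,12-dimethylbenz[a]anthracene, is a polycyclic aromatic hydrocarbon used to start skin tumours in mice. Hydrocarbons of this kind bind the aryl hydrocarbon receptor (AhR), which waits in the cytoplasm with Hsp90, moves to the nucleus, pairs with Arnt and binds DNA at elements built on the core GCGTG. Its best known targets are the CYP1 family of cytochromes P450, which oxidise the hydrocarbon itself. With epoxide hydrolase they can turn DMBA into diol epoxides that form bulky DNA adducts. Damaged DNA can stabilise p53, which then switches on genes for cell cycle arrest, apoptosis and repair. Melanocyte stem cells lie in the hair follicle among keratinocytes, and epidermal keratinocytes also respond to AhR ligands.

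In DMBA-treated cells the genes that stood out were AhR targets: Cyp1a1 rose to 1342 times its summed vehicle counts, and Cyp1b1 and Tiparp rose as well. Outside the AhR list the alcohol dehydrogenase gene Adh7, the phospholipase gene Plcg2 and the interferon-stimulated gene Isg20 rose. By edgeR's quasi-likelihood test over all 9 libraries, 6 of 16051 genes passed an adjusted p of 0.05 (0.0374%). All 6 were higher in DMBA and 0 were lower. With an unadjusted p below 0.05, 618 genes were higher (3.85%) and 458 were lower (2.85%). The groups did not overlap in CPM for 1206 genes that were higher in DMBA (7.51%) and for 994 that were lower (6.19%). The median log2 fold change over all genes tested was 0.006. DESeq2, run as an alternative, called 23 genes (0.143%).

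**Figure D1:**
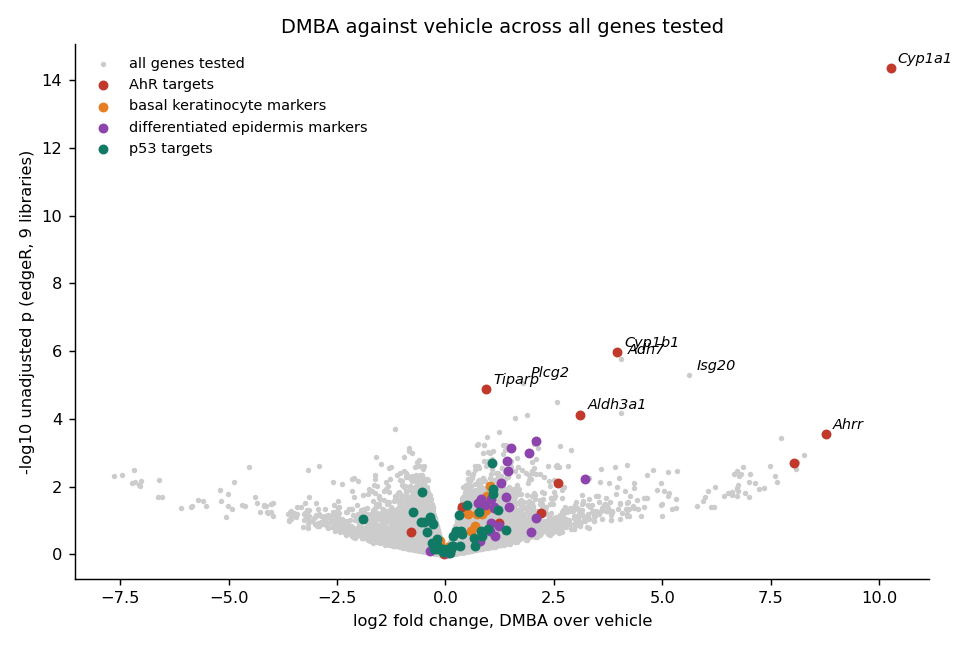
Each point is 1 of the 16051 genes tested: the horizontal axis is the log2 fold change of DMBA over vehicle and the vertical axis the -log10 of the unadjusted edgeR p. AhR targets, basal keratinocyte, differentiated epidermis and p53 target lists are coloured, and Cyp1a1 stands apart at a log2 fold change of 10.26 while all but 1 marker of each epidermal list lie right of 0, with smaller changes.

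Cyp1a1, the cytochrome P450 gene that is the textbook AhR target, had 1270, 2298 and 1881 counts in DMBA 1, 2 and 3, against 2, 1 and 1 counts in vehicle 1, 2 and 3. In the IR libraries it had 0, 2 and 2 counts. On the CPM scale these are 163, 295 and 258 in DMBA libraries, 0, 0.271 and 0.288 in IR libraries and 0.246, 0.135 and 0.144 in vehicle libraries. The gene was thus close to silent in every library that had not seen DMBA. The ratio of summed DMBA to vehicle counts, scaled for depth, was 1342 with a 95% interval of 523.8 to 4927 that covers counting error only. The fitted log2 fold change was 10.26 ± 0.43 (SE; edgeR adjusted p = 7.15e-11). Its neighbour and relative Cyp1a2, which is largely a liver enzyme, had 2 counts in DMBA libraries and 0 in vehicle libraries and was not tested.

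Cyp1b1, the CYP1 member that makes the precursor of the DNA-binding diol epoxide of DMBA, had 124, 138 and 105 CPM in DMBA libraries, 8.75, 3.25 and 2.45 in IR libraries and 14.1, 1.21 and 8.19 in vehicle libraries. Each DMBA library was above each of the other 6, and vehicle cells, unlike for Cyp1a1, held a low and uneven level. Its log2 fold change against vehicle was 3.96 ± 0.55 (SE; edgeR adjusted p = 0.00868). Tiparp, an ADP-ribosyltransferase that AhR induces and that in turn restrains AhR, had 396, 309 and 342 CPM in DMBA libraries, 145, 147 and 169.9 in IR libraries and 161, 201 and 186 in vehicle libraries. It was well expressed without DMBA, the groups did not overlap, and the rise was 1.91-fold (log2 fold change 0.93 ± 0.16, edgeR adjusted p = 0.0358). Tiparp overlaps the opposite-strand gene 4931440P22Rik, which had 463 counts over all libraries against 15510 for Tiparp.

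Of the other listed AhR targets, Aldh3a1 and Ahrr had the smallest p. Aldh3a1, an aldehyde dehydrogenase of surface epithelia, had 67.3, 107 and 126 CPM in DMBA libraries, 30.2, 4.47 and 2.16 in IR libraries and 8.59, 11.3 and 14.8 in vehicle libraries. All DMBA libraries were above all others, yet the difference from vehicle did not pass (log2 fold change 3.11 ± 0.61, edgeR adjusted p = 0.126), while that from IR did (edgeR adjusted p = 0.0154). Ahrr, the AhR repressor, had 6.93, 4.36 and 10.4 CPM in DMBA libraries, 0.125, 0 and 0.865 in IR libraries and 0 counts in each vehicle library. It had 164 counts over the DMBA libraries, at least 53.8-fold higher than vehicle against a floor of 3 counts over the group. EdgeR did not call it (adjusted p = 0.325), DESeq2 did (adjusted p = 0.00102).

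Ugt1a7c, a glucuronosyltransferase gene, had 1.54, 6.15 and 5.35 CPM in DMBA libraries, 0, 0.406 and 0 in IR libraries and 0 counts in each vehicle library. Over the DMBA libraries it had 99 counts, at least 32.5-fold higher than vehicle against the same floor (edgeR adjusted p = 0.518). Its exons are shared with other members of the Ugt1a cluster, so the split of reads among them is uncertain. Cyp2s1, an extrahepatic cytochrome P450 gene, had 11.4, 13.7 and 14.4 CPM in DMBA libraries, 3.75, 6.37 and 0.576 in IR libraries and 2.46, 3.77 and 0.287 in vehicle libraries (log2 fold change 2.59 ± 0.86, edgeR adjusted p = 0.578). Nqo1, a quinone reductase gene that both AhR and Nrf2 induce, had 6.93, 3.59 and 9.88 CPM in DMBA libraries, 0.375, 0.271 and 1.01 in IR libraries and 1.84, 0.135 and 2.44 in vehicle libraries (log2 fold change 2.20 ± 1.10, edgeR adjusted p = 0.748). For both genes the DMBA libraries were above all others without passing the test. The glutathione transferase genes Gsta1 and Gsta2, also listed as AhR targets, had fold changes of -0.80 and -0.03 on the log2 scale, with overlapping groups, and as near-identical copies they may share reads.

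Over the list of 15 AhR targets, 12 were tested and 3 rose (Cyp1a1, Cyp1b1 and Tiparp), where 0.0374% of all genes did. With an unadjusted p below 0.05, 8 of the 12 were higher and 0 lower, where 3.85% of all genes were higher. With no count filter 6 of 15 were called, all higher, with Aldh3a1, Ahrr and Serpinb2 besides those 3. In that fit 0.474% of all genes were called higher. The median log2 fold change of the 12 was 2.39, against 0.006 over all genes. The count filter keeps a gene that is high in 1 group alone. Cyp1a1, Ahrr and Ugt1a7c were at or near 0 counts in vehicle and IR libraries, so they were tested only through DMBA libraries. The counts over the 12 and their median thus partly follow from the filter. Of 10 genes of the receptor complex itself, 0 were called in either direction, and their median was -0.09. With an unadjusted p below 0.05, 1 was higher and 1 lower (3.85 and 2.85% of all genes were). DESeq2 called none of the 10 either. Ahr had 109, 100.5 and 119.5 CPM in DMBA libraries against 115, 91.4 and 125 in vehicle libraries (log2 fold change -0.01, 95% interval -0.38 to 0.36). Arnt had 101, 132 and 115 CPM in DMBA libraries against 127, 133 and 144 in vehicle libraries (log2 fold change -0.21, 95% interval -0.58 to 0.16).

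**Figure D2:**
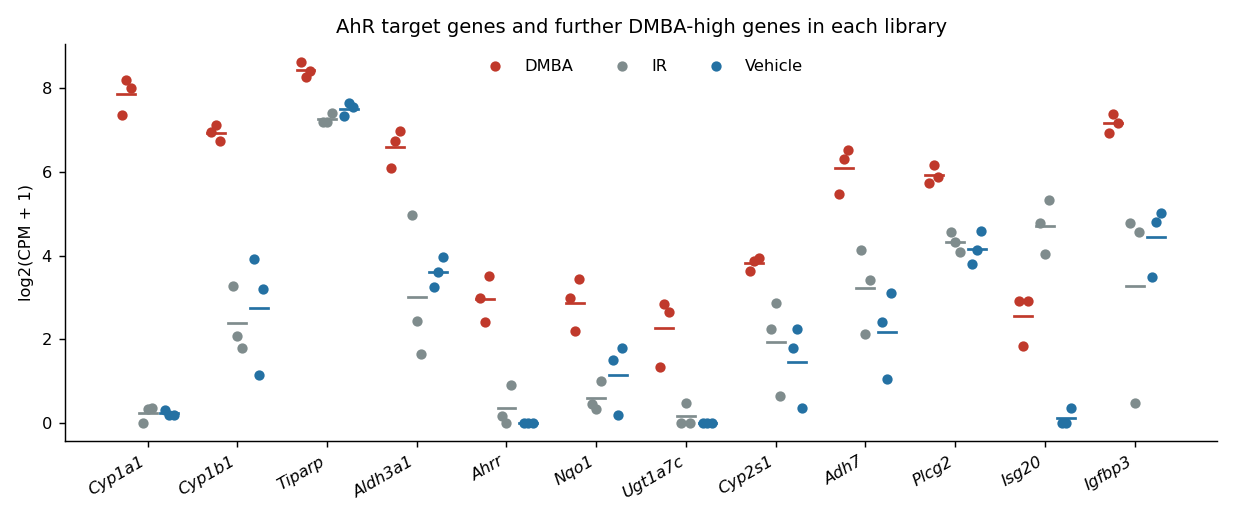
Each point is 1 library on a log2(CPM + 1) scale, with DMBA left, IR in the middle and vehicle right for each gene, and bars mark the mean of 3 libraries. The first 8 genes are AhR targets; for each of the 12 genes but Isg20 the 3 DMBA libraries lie above all 6 others, and for Isg20 the IR libraries are highest.

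The promoters of 5 genes that hold the AhR core motif are shown. They are those of the called genes Cyp1a1, Cyp1b1, Tiparp and Adh7, and of Ahrr, which edgeR did not call. Each runs 5′ to 3′ on the gene's own strand, from 250 bases before to 50 after the RefSeq start site (build GRCm38.p6), and capitals mark GCGTG, or its reverse complement CACGC where the match is on the other strand. Cyp1a1 lies at chr9:57697363-57697662, plus strand, Cyp1b1 at chr17:79715012-79715311, minus strand, Tiparp at chr3:65528197-65528496, plus strand, Adh7 at chr3:138217523-138217822, plus strand and Ahrr at chr13:74292282-74292581, minus strand.
Cyp1a1: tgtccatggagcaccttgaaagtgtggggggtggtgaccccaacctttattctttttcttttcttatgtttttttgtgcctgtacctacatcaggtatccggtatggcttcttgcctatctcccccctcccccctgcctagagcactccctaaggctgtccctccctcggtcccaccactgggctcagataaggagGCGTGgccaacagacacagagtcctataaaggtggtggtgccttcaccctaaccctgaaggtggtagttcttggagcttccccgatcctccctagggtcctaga
Cyp1b1: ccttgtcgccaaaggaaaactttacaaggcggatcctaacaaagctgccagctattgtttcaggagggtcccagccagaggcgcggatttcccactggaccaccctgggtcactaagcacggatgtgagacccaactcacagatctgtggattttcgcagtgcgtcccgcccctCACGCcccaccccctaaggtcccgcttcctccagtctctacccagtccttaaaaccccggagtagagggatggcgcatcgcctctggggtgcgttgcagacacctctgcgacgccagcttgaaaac
Tiparp: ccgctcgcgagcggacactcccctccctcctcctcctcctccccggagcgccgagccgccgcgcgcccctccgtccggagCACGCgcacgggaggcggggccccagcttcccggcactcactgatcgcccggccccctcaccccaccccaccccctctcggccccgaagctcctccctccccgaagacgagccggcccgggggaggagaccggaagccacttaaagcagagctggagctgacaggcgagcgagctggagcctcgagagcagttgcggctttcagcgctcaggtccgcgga
Adh7: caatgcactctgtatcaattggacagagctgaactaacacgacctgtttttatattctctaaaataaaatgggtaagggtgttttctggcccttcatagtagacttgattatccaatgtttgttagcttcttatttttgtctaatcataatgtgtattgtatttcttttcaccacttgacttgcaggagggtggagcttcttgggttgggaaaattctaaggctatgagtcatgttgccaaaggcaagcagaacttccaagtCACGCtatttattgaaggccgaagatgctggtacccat
Ahrr: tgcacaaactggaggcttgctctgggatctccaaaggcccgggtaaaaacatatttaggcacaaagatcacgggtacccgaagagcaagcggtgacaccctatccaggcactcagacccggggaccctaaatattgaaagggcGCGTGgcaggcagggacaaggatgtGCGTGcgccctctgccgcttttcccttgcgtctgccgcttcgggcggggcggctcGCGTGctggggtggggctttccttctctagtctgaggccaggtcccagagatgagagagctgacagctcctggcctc
The match in Cyp1a1 begins 54 bases before the start site, that in Cyp1b1 76 bases before it and that in Tiparp 170 bases before it. Adh7 has its match 13 bases into the transcript. Ahrr has 3 matches, which begin 107, 82 and 27 bases before the start. Promoters were looked up for 12 genes, the 6 called ones and 6 others with high DMBA values. Of these, 11 were found in the RefSeq table and 6 held the motif: the 5 shown and Igfbp3. The called genes Plcg2 and Isg20 held 0 matches, Isg20 at each of its 3 start sites. The listed AhR targets Nqo1, Ugt1a7c and Cyp2s1 held 0 matches too. The motif is common: on either strand it was in 32.4% of 32851 promoters of the same length and in 49.9% of those of genes tested. The longer form TNGCGTG was in 5.07% of all promoters, in 7.81% of those of genes tested and, among the genes looked up, in Adh7 and Ahrr. A match describes these letters in this window and says nothing of binding.

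The other called genes come from other roles. Adh7, an alcohol dehydrogenase of stratified epithelia that also oxidises retinol, had 43.5, 79.0 and 90.7 CPM in DMBA libraries, 16.6, 3.39 and 9.66 in IR libraries and 4.30, 1.08 and 7.62 in vehicle libraries. Each DMBA library exceeded all 6 others, and the log2 fold change against vehicle was 4.04 ± 0.58 (SE; edgeR adjusted p = 0.00916). Plcg2, a phospholipase C that passes on signals from immune and growth factor receptors, had 52.1, 71.4 and 58.2 CPM in DMBA libraries, 22.7, 19.1 and 16.1 in IR libraries and 12.9, 16.6 and 23.0 in vehicle libraries. Its 3 DMBA libraries were again the 3 highest of 9, with a rise of 3.47-fold (log2 fold change 1.79 ± 0.29, edgeR adjusted p = 0.027). Isg20, an interferon-induced RNA exonuclease gene, had 6.55, 2.56 and 6.59 CPM in DMBA libraries, 26.6, 15.6 and 39.1 in IR libraries and 0, 0 and 0.287 in vehicle libraries. It was called against vehicle (log2 fold change 5.62 ± 0.88, edgeR adjusted p = 0.0207) on 119 against 2 summed counts, and every IR library lay above every DMBA library.

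Set directly against IR, 157 of 16051 genes were called (0.978%), 16 higher in DMBA (0.0997%) and 141 lower (0.878%). Of the 6 genes above, Cyp1a1, Cyp1b1, Adh7, Plcg2 and Tiparp were also called higher than in IR. Their log2 fold changes over IR were 10.25, 4.65, 2.84, 1.65 and 1.18 in that order. Isg20 was -2.37 against IR (edgeR adjusted p = 0.0769). Both comparisons use the same DMBA libraries. The 6 calls differed in how much they leaned on single libraries: with each DMBA or vehicle library left out in turn, Cyp1a1 and Cyp1b1 were called in 6 of 6 fits. Adh7 was called in 4, Isg20 in 2 and Plcg2 in 1, and Tiparp in 0 (edgeR adjusted p 0.0521 to 0.262), while the sign of each held throughout.

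No enzyme gene of the steps around CYP1 passed outside the AhR list, apart from Adh7. Of 14 tested genes of oxidation and epoxide hydrolysis outside the AhR list, 0 were called and the median log2 fold change was 0.04. Ephx1, the microsomal epoxide hydrolase needed for the diol epoxide, had 27.2, 33.7 and 60.5 CPM in DMBA libraries, 260.3, 257 and 157 in IR libraries and 39.7, 37.7 and 16.1 in vehicle libraries. It overlapped between DMBA and vehicle (log2 fold change 0.37, 95% interval -0.30 to 1.05) and was lower in DMBA than in IR (log2 fold change -2.47 ± 0.33, edgeR adjusted p = 0.000235). Of 20 conjugation genes tested, such as glutathione and sulfotransferases, 0 were called and the median was 0.40. With an unadjusted p below 0.05, 1 was higher (Gstt2, log2 fold change 1.10 ± 0.48), where 3.85% of all genes were. Of 7 efflux transporter genes, 0 were called. Abcb1b, a P-glycoprotein gene, had 3.85, 6.54 and 12.4 CPM in DMBA libraries, 54.4, 13.4 and 20.3 in IR libraries and 1.60, 3.23 and 1.01 in vehicle libraries (unadjusted p = 0.00565). DMBA libraries lay between the other groups for this gene, with each above each vehicle library.

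Adh7 was the 1 called gene among 26 of alcohol, aldehyde and retinoid metabolism (0.0374% of all genes were called). The median of the 26 was 0.16. With an unadjusted p below 0.05, 3 were higher and 1 was lower (3.85 and 2.85% of all genes were). Aldh3b2, an aldehyde dehydrogenase that acts on lipid aldehydes, had 12.6, 29.5 and 30.2 CPM in DMBA libraries against 3.68, 10.4 and 4.89 in vehicle libraries, and Rarb, a retinoic acid receptor gene, 35.3, 20.9 and 37.7 CPM in DMBA libraries against 49.2, 54.5 and 41.7 in vehicle libraries. Aldh3b2 was higher and Rarb lower in every DMBA library than in any vehicle library, and neither passed (edgeR adjusted p = 0.55 and 0.734). Of 27 antioxidant genes of the Nrf2 response, 0 were called, and the median was 0.24. With an unadjusted p below 0.05, 4 were higher and 0 lower (3.85 and 2.85% of all genes were). Gpx2, a glutathione peroxidase of epithelia, had 3.72, 4.23 and 6.04 CPM in DMBA libraries, 0.500, 5.01 and 2.45 in IR libraries and 0.123, 0.135 and 0.575 in vehicle libraries, on 106 DMBA and 6 vehicle counts. Gpx1, the widespread family member, had 82.4, 111 and 108 CPM in DMBA libraries against 43.3, 50.6 and 83.2 in vehicle libraries, and the groups overlapped. Hmox1, the heme oxygenase gene that marks oxidative stress, had 5.52, 7.95 and 16.2 CPM in DMBA libraries against 12.5, 5.92 and 7.90 in vehicle libraries (log2 fold change 0.17, 95% interval -0.84 to 1.18). Its sign turned negative when vehicle 2 or DMBA 3 was left out.

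Transcripts of keratinocytes were also more abundant in DMBA libraries, and in bulk RNA more such cells and more such RNA per cell cannot be told apart. Over the 16 basal keratinocyte markers FPKM, a level per length of transcript, summed to 2457, 3545 and 3393 in DMBA libraries, 3415, 912.8 and 1414 in IR libraries and 1874, 1546 and 2136 in vehicle libraries. For 25 differentiated epidermis markers the sums were 2306, 3533 and 2589 in DMBA libraries, 2968, 448.8 and 1264 in IR libraries and 1115, 1084 and 1217 in vehicle libraries. Each DMBA library was above each vehicle library for both sums, while the IR libraries spanned from below all vehicle libraries to within the DMBA range. The sum of 31 pigment and melanosome genes was 1719, 1746 and 2046 in DMBA libraries, 1724, 1902 and 2420 in IR libraries and 1895, 1909 and 1974 in vehicle libraries. That sum, meant as a check of the labelled cell type, was 1719 or more in every library and overlapped among all 3 groups. Overlap does not show how pure the sorted cells were. In each DMBA library the basal and the differentiated sum each exceeded the pigment sum. In vehicle libraries the differentiated sum was below the pigment sum, and the basal sum lay on both sides of it. Among IR libraries both epidermal sums exceeded the pigment sum only in the library with the highest basal sum. Sums over different genes do not give shares of cells, and in which cells the AhR targets rose was not tested.

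**Figure D3:**
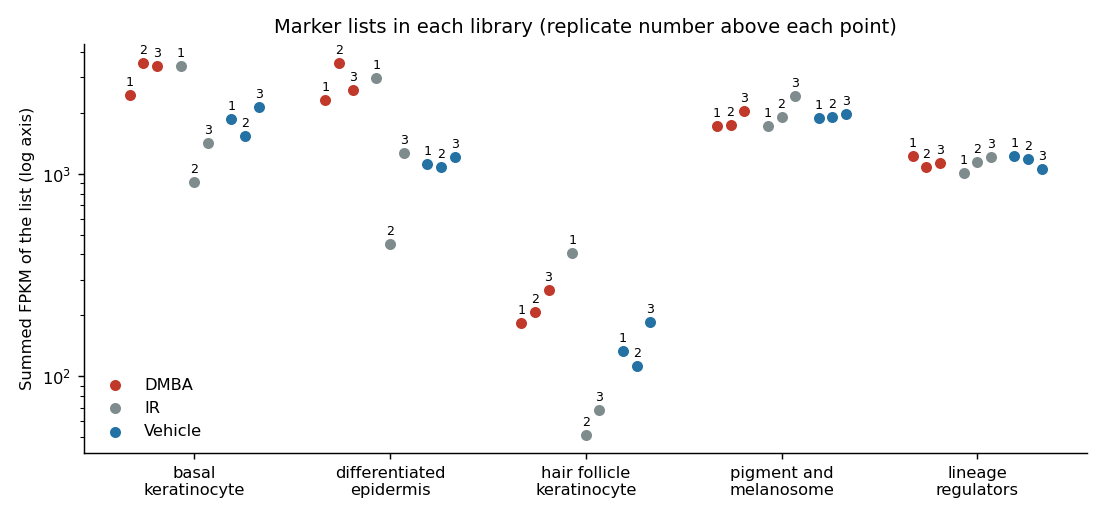
Summed FPKM of each marker list, on a log axis, with 1 point per library and its replicate number above it; DMBA is left, IR in the middle and vehicle right. Basal and differentiated epidermis sums are higher in all DMBA libraries than in vehicle libraries, IR 1 lies with DMBA for these lists, and the pigment and lineage sums overlap between groups.

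Of the 16 basal markers 0 were called in the 9-library fit, 8 were higher with an unadjusted p below 0.05 (3.85% of all genes were), 9 did not overlap, all higher in DMBA (7.51% of all genes were), and the median log2 fold change was 0.82. With no count filter, the same 9 libraries gave 10 called, all higher (0.474% of all genes were). Krt14, a keratin of the basal layer, had 982, 1538 and 1154 CPM in DMBA libraries, 1397, 259.9 and 511 in IR libraries and 609, 581 and 729 in vehicle libraries. Its partner Krt5 had 1133, 1769 and 1714 CPM in DMBA libraries, 1808, 304 and 583 in IR libraries and 819, 703 and 1064 in vehicle libraries. Both were higher in each DMBA library than in each vehicle library, at a log2 fold change of 0.94 ± 0.37 for Krt14 and 0.84 ± 0.40 for Krt5 (edgeR adjusted p = 0.665 and 0.741). Dsp, desmoplakin of the cell junctions called desmosomes, had 2479.7, 3523 and 2498 CPM in DMBA libraries, 3520.1, 629.6 and 1429 in IR libraries and 1342, 1194 and 1826 in vehicle libraries. Pkp1, a plakophilin of the same junctions, had 348, 508 and 439 CPM in DMBA libraries, 509.6, 114 and 216 in IR libraries and 213, 159 and 269 in vehicle libraries. In both, IR 1 was about as high as the highest DMBA library.

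Of 24 differentiated epidermis markers tested, 0 were called in the 9-library fit, 15 were higher and 0 lower with an unadjusted p below 0.05 (3.85 and 2.85% of all genes were), 14 did not overlap, all higher in DMBA (7.51%), and the median log2 fold change was 1.18. With no count filter, 14 of 25 were called, all higher (0.474% of all genes were). Krt1, the suprabasal keratin, had 843, 1487 and 1054 CPM in DMBA libraries, 953, 174 and 569 in IR libraries and 482, 331 and 365 in vehicle libraries. Krt10, its partner, had 1627, 2476 and 1706 CPM in DMBA libraries, 1977, 317 and 963 in IR libraries and 746, 623 and 820.4 in vehicle libraries. The DMBA and vehicle libraries stood well apart in both, at log2 fold changes of 1.52 ± 0.37 and 1.41 ± 0.38 (edgeR adjusted p = 0.423 and 0.518). Casp14, a protease of the cornified layer, had 17.2, 26.2 and 17.0 CPM in DMBA libraries, 18.5, 7.99 and 8.65 in IR libraries and 3.07, 5.65 and 5.46 in vehicle libraries (log2 fold change 2.09 ± 0.49, edgeR adjusted p = 0.414). It was the 1 marker of this list that DESeq2 called. The terminal markers Lor and Flg, which make the cornified envelope and bind keratin filaments, were low and uneven, with 16, 27 and 9 counts of Lor in DMBA libraries against 2, 63 and 0 in vehicle libraries.

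Of the other cell type lists, no gene was called in the 9-library fit. With no count filter Krt17 of hair follicles and Scd1 and Scd3 of sebocytes were called higher, where 0.474% of all genes were. Of 12 hair follicle keratinocyte genes tested 0 were called, with a summed FPKM of 184.3, 208.2 and 268.3 in DMBA libraries, 404.9, 51.46 and 67.89 in IR libraries and 132.8, 112.1 and 186.4 in vehicle libraries, so DMBA and vehicle overlapped. Of 8 sebocyte genes 0 were called, and the list sum of 61.44, 176.8 and 58.46 in DMBA libraries, against 53.03, 38.03 and 40.04 in vehicle libraries, was above vehicle in each DMBA library and highest in DMBA 2. The IR libraries had 152.8, 50.42 and 51.67. Of the 8 genes, 3 were higher than vehicle with an unadjusted p below 0.05 (3.85% of all genes were), with a median log2 fold change of 1.13. Scd1, a desaturase of sebaceous lipid synthesis, had 140.5, 529.5 and 128 CPM in DMBA libraries, 536, 108 and 133 in IR libraries and 134, 66.4 and 91.5 in vehicle libraries, high in DMBA 2 and in IR 1. Fibroblast markers summed to between 15.36 and 21.88 FPKM in DMBA libraries and between 17.2 and 24.85 in vehicle libraries, with 3 of 10 at 0 in each group. Endothelial markers reached at most 1.04 FPKM in DMBA libraries and 1.07 in vehicle libraries. Mast cell markers were at 0 in every library but DMBA 2. Macrophage and dendritic cell markers summed to between 48.14 and 54.24 FPKM in DMBA libraries and between 36.00 and 59.61 in vehicle libraries, and T cell markers to between 1.96 and 4.24 in DMBA libraries and between 3.03 and 5.48 in vehicle libraries. The part of these cells in any gene named here was not tested beyond the values given.

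Whether single epidermal genes passed depended on which libraries were fitted and on the filter for low counts. With all 9 libraries and no count filter (31041 genes with at least 1 count), edgeR called 147 genes higher in DMBA (0.474%). Among them were 10 of 16 basal and 14 of 25 differentiated markers, Krt14 and Krt10 included. Dropping the filter left the log2 fold changes nearly unchanged and lowered the edgeR adjusted p. It went from 0.518 to 3.9e-16 for Krt10 and from 0.00868 to 7.07e-34 for Cyp1b1. What shrank was the SE, to 0.155 for Krt10 and 0.307 for Cyp1b1, both below the main-fit SEs given above. The libraries were the same, so these calls add no evidence from further samples. Krt10 passed the filter in any case, with high counts in every library. DESeq2, run with the filter, called 0 of 16 basal and 1 of 24 differentiated markers. Why the p-values moved was not tested. Fitted on the 6 DMBA and vehicle libraries alone, edgeR called 44 of 14943 genes (0.294%), all higher in DMBA, with the same log2 fold changes. Of these, 5 were also called with 9 libraries (all but Isg20, edgeR adjusted p = 0.13 in the smaller fit) and 39 were not. Among the 39 were 13 listed epidermal markers, 6 basal (Krt14, Krt5, Dsp, Col17a1, Dsc3 and Pkp1) and 7 differentiated (Krt10, Krt77, Krt1, Krtdap, Sbsn, Dsg1a and Elovl4). The edgeR adjusted p in this fit was 0.000112 for Krt10 and 0.00808 for Krt14, with SEs of 0.16 for both, against 0.518 and 0.665 with 9 libraries. Aldh3a1 (edgeR adjusted p = 1.11e-05), Ahrr (0.0185) and Igfbp3 (0.000112) also passed. With 1 of the 6 libraries left out, the fit called between 18 and 73 genes, 0 to 7 basal and 3 to 7 differentiated markers. It called 0 basal markers without DMBA 2, vehicle 1 or vehicle 2.

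The difference between the 6- and 9-library fits sits beside the spread among IR libraries. The median SD of log2 CPM among the 3 libraries of a group, over basal markers, was 0.34 in DMBA, 1.083 in IR and 0.286 in vehicle. Over differentiated markers it was 0.453 in DMBA, 1.475 in IR and 0.446 in vehicle. Over all genes tested it was 0.364 in DMBA, 0.388 in IR and 0.406 in vehicle, so the IR libraries were uneven in epidermal genes and not across the board. A 9-library fit with each library's mean basal marker level as a covariate again called 6 genes, 5 of them the same. Plcg2 was lost (edgeR adjusted p = 0.0776). Krt5 moved to -0.06 on the log2 scale, but Krt5 is part of that covariate, so a move towards 0 was built in. This fit cannot tell in which cells a gene rose, since a rise within DMBA-exposed keratinocytes could remain after it.

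IR 1 was the irradiated library with a basal sum inside the DMBA range, and its values are set beside those of DMBA libraries as a description. It reached the lowest DMBA library for 14 of 16 basal and 21 of 24 differentiated markers tested and for 4 of the 12 AhR targets, where it did so for 73.6% of all genes tested. The DMBA mean was 14.0 times the IR 1 value for Cyp1b1, 4.28 times for Adh7, 2.66 times for Plcg2, 2.40 times for Tiparp and 3.31 times for Aldh3a1. For Krt14 and Krt10 it was 0.877 and 0.979 times the IR 1 value. Cyp1a1 had 0 counts in IR 1. IR 1 is 1 library and had been irradiated, so radiation and keratinocyte content cannot be told apart in it.

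**Figure D4:**
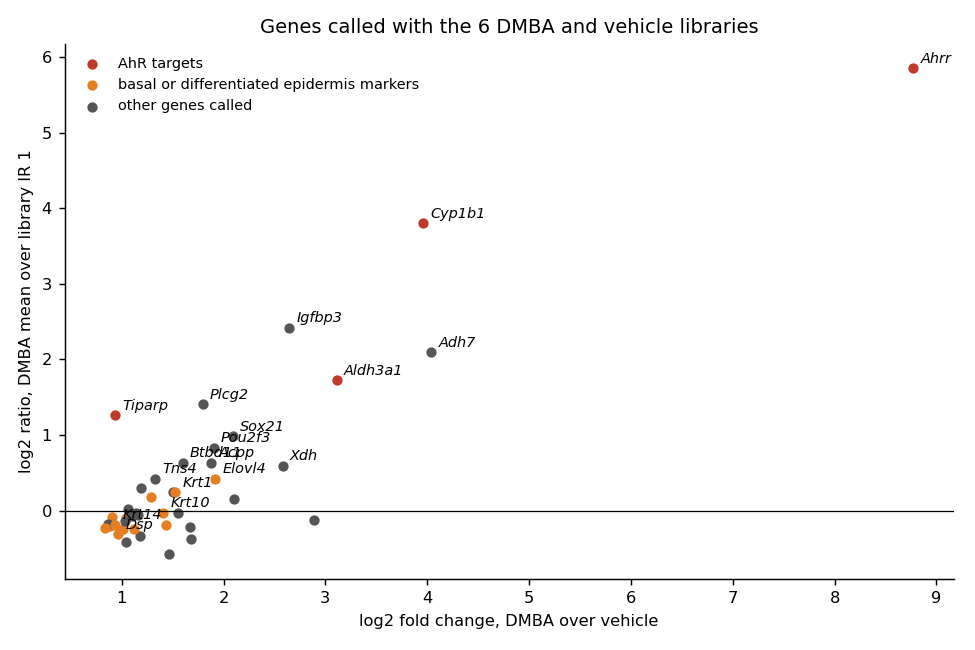
Genes called with the 6 DMBA and vehicle libraries, except Cyp1a1, which had 0 counts in IR 1: the horizontal axis is the log2 fold change of DMBA over vehicle and the vertical axis the log2 ratio of the DMBA mean to library IR 1. Listed epidermal markers lie near 0 on the vertical axis, while Cyp1b1, Ahrr, Adh7, Aldh3a1, Igfbp3, Plcg2 and Tiparp lie above 1.

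Igfbp3, which encodes a secreted binding protein of insulin-like growth factors, was also far above IR 1. It had 122, 165 and 142 CPM in DMBA libraries, 26.7, 0.406 and 22.8 in IR libraries and 10.3, 27.1 and 31.8 in vehicle libraries, and the DMBA mean was 5.36 times the IR 1 value. All DMBA libraries were far above the rest. The difference from vehicle did not pass with 9 libraries (log2 fold change 2.64 ± 0.64, edgeR adjusted p = 0.423), and that from IR did (edgeR adjusted p = 0.0223). It was the 1 of 16 senescence secretory factors tested that was higher than vehicle with an unadjusted p below 0.05 (3.85% of all genes were). Of that list 0 were lower and 0 called.

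By fixed rule the 8 highest of 97 and the 8 lowest of 41 candidates that did not pass, but had an unadjusted p below 0.01 and groups apart, are given as values. Besides Aldh3a1 and Igfbp3, the highest were Mrgprb11-ps, Serpina3b, Fa2h, Tubb3, Med11 and Tgm5. Serpina3b, a serine protease inhibitor gene, had 4.37, 33.1 and 5.35 CPM in DMBA libraries, 7.12, 0.542 and 3.03 in IR libraries and 1.96, 0 and 0.287 in vehicle libraries. Fa2h, a fatty acid hydroxylase that makes the hydroxylated ceramides of skin and myelin, had 8.99, 45.5 and 8.23 CPM in DMBA libraries, 40.2, 1.49 and 3.60 in IR libraries and 2.82, 0 and 1.29 in vehicle libraries. Tgm5, an epidermal transglutaminase gene, had 12.3, 24.5 and 12.1 CPM in DMBA libraries, 14.7, 3.39 and 1.30 in IR libraries and 6.51, 1.75 and 0.862 in vehicle libraries. In all 3 genes IR 1 reached into the DMBA range, and none of the 3 passed (edgeR adjusted p = 0.518, 0.518 and 0.626).

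The lowest were Mir708, Ccdc58, Erdr1, Mid1, Tango6, Hic2, Phka1 and Cep43. Mid1, a ubiquitin ligase of microtubules, had 19.3, 24.2 and 21.4 CPM in DMBA libraries, 47.7, 38.3 and 39.3 in IR libraries and 56.5, 47.9 and 41.1 in vehicle libraries. It had the smallest p of the lower genes (log2 fold change -1.16 ± 0.25, edgeR adjusted p = 0.271) and was called lower by DESeq2, together with Lrrfip1. Its locus overlaps opposite-strand transcripts with more reads than Mid1 itself, so with counting by strand not stated its level is uncertain. Erdr1 had 14.4, 5.00 and 13.9 CPM in DMBA libraries, 40.5, 24.1 and 23.3 in IR libraries and 44.9, 21.5 and 26.2 in vehicle libraries. Both were lower in every DMBA library than in every vehicle library. Mir708 lies inside Tenm4 on the same strand and had 0 counts in DMBA libraries against 36 in vehicle libraries, which cannot be told from reads of Tenm4.

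No p53 target passed between DMBA and vehicle, and 21 were lower in DMBA than in IR. Of 42 p53 targets, all tested, 0 were called between DMBA and vehicle. With an unadjusted p below 0.05, 5 were higher (3.85% of all genes were) and 1 was lower (2.85%), and the median log2 fold change was 0.14. Between DMBA and IR the same list had 0 called higher and 21 called lower, where 0.878% of all genes were, and a median of -1.81. DESeq2 called 0 of the list between DMBA and vehicle and 24 lower than IR (1.53% of all genes were). EdgeR with no count filter called 3 of the 42 higher in DMBA than in vehicle (0.474% of all genes were): Perp, Sfn and Phlda3, at log2 fold changes of 1.10, 1.10 and 1.08.

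**Figure D5:**
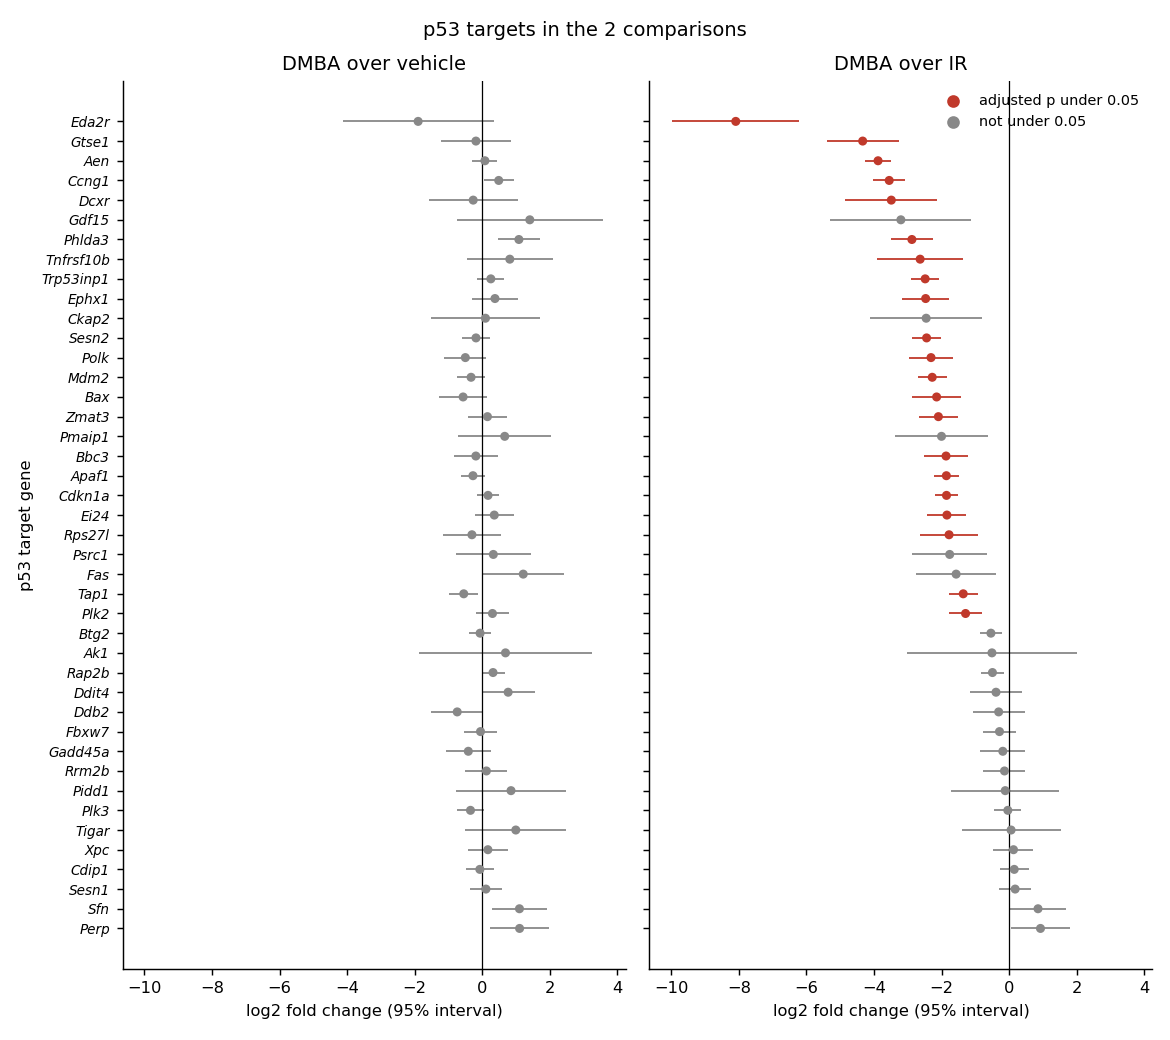
Log2 fold changes with 95% intervals of the 42 p53 targets, DMBA over vehicle left and DMBA over IR right, in the same order of genes. Red marks an edgeR adjusted p under 0.05, which 0 genes have on the left and 21, all below 0, on the right.

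Cdkn1a, the gene of p21, which halts the cell cycle, had 240.0, 276 and 204 CPM in DMBA libraries, 925, 892 and 787 in IR libraries and 231, 188 and 221 in vehicle libraries. DMBA and vehicle overlapped (log2 fold change 0.17, 95% interval -0.15 to 0.49), and each IR library was above them all (DMBA over IR -1.86 ± 0.16, edgeR adjusted p = 1.03e-06). Mdm2, the ubiquitin ligase that p53 induces against itself, had 84.4, 114 and 74.3 CPM in DMBA libraries, 413, 532 and 379.6 in IR libraries and 136, 92.8 and 115 in vehicle libraries (DMBA over vehicle -0.33, 95% interval -0.74 to 0.08). For both genes the interval excludes a doubling over vehicle. Aen, a p53-induced apoptosis nuclease, had 22.1, 19.1 and 21.8 CPM in DMBA libraries, 281, 339 and 309 in IR libraries and 21.4, 19.7 and 18.7 in vehicle libraries (DMBA over vehicle 0.08, 95% interval -0.29 to 0.45). Eda2r, a death receptor gene, had 0, 0 and 3 counts in DMBA libraries, 354, 297 and 258 in IR libraries and 4, 0 and 8 in vehicle libraries. Both overlapped between DMBA and vehicle, and both were much higher in IR.

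A few members of the list lay higher in DMBA than in vehicle without passing. Ccng1, a cyclin G gene, had 42.8, 37.6 and 52.4 CPM in DMBA libraries, 571, 547 and 438 in IR libraries and 25.0, 44.0 and 25.7 in vehicle libraries, with DMBA and vehicle overlapping. Phlda3, a repressor of Akt signalling, had 12.5, 25.8 and 14.3 CPM in DMBA libraries, 135, 152 and 100.02 in IR libraries and 9.94, 6.33 and 8.48 in vehicle libraries (DMBA over vehicle 1.08 ± 0.30, edgeR adjusted p = 0.518). All 3 DMBA libraries were above all vehicle libraries and far below IR. Sfn had 279.7, 583 and 269 CPM in DMBA libraries against 193, 102 and 234 in vehicle libraries, and Perp 440.4, 763 and 624 CPM in DMBA libraries against 242, 248 and 361 in vehicle libraries. Both are also strongly expressed in stratified epithelia, and Perp, a desmosome gene, was the 1 p53 target called with 6 libraries (edgeR adjusted p = 0.01). IR 1 had the highest Sfn and Perp of the IR libraries, as it had for the keratins. The parts of keratinocyte RNA and of p53 in the values of these 2 genes were not tested. The remaining targets with the smallest p against IR, Trp53inp1, Sesn2 and Apaf1, had log2 fold changes over IR of -2.49, -2.44 and -1.86 and over vehicle of 0.25, -0.19 and -0.28.

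No gene of p53 control or of adduct repair passed against vehicle. Of 14 p53 regulators and damage kinases tested 0 were called against vehicle, with 0 with an unadjusted p below 0.05 in either direction and a median of -0.13; DESeq2 called 0 too. Trp53 itself had 39.7, 49.5 and 64.2 CPM in DMBA libraries, 94.7, 84.0 and 113 in IR libraries and 58.3, 57.6 and 53.7 in vehicle libraries. It overlapped between DMBA and vehicle and was called lower than in IR (log2 fold change -0.93 ± 0.22, edgeR adjusted p = 0.0462). Cdkn2a had 0 counts in DMBA libraries and 2 in vehicle libraries. Of 28 genes of bulky adduct repair and bypass 0 were called, and the median was 0.03. With an unadjusted p below 0.05, 1 was higher (Ercc3, a helicase of nucleotide excision repair) and 3 were lower (Lig1, Rev3l and Rad18). By that measure 3.85% of all genes were higher and 2.85% lower. Rev3l, the catalytic subunit of the bypass polymerase zeta, had 235, 248 and 179.7 CPM in DMBA libraries against 268, 293 and 300.5 in vehicle libraries, and all DMBA values were under all vehicle values. Of 5 cyclin-dependent kinase inhibitors 0 were called, and of 21 mitosis genes 0 were called with 0 with an unadjusted p below 0.05. Mki67, the proliferation marker, had 88.6, 30.4 and 53.5 CPM in DMBA libraries, 43.1, 3.11 and 9.80 in IR libraries and 42.1, 41.5 and 101 in vehicle libraries, with DMBA and vehicle overlapping.

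No pigment or lineage gene passed the test between DMBA and vehicle. Of 30 pigment synthesis and melanosome genes tested 0 were called, 0 had an unadjusted p under 0.05 in either direction, and the median log2 fold change was -0.13. Dct, the enzyme gene behind the reporter, had 2828, 2589 and 3121 CPM in DMBA libraries against 3042, 3055 and 3112 in vehicle libraries (log2 fold change -0.11, 95% interval -0.42 to 0.20). Tyr, the rate-limiting enzyme of melanin synthesis, had 146, 154 and 191 CPM in DMBA libraries against 166, 168 and 230.5 in vehicle libraries (log2 fold change -0.20, 95% interval -0.59 to 0.18). Both overlapped between the groups. Pmel, the fibril protein of the melanosome, had a log2 fold change of -0.20 (95% interval -0.61 to 0.21), Tyrp1 of 0.08 (95% interval -0.25 to 0.41) and Mlana of -0.00 (95% interval -0.42 to 0.42). Myo5a, the myosin that carries melanosomes, had the smallest p of the list, with 1396, 1317 and 1272 CPM in DMBA libraries against 1593, 1565 and 1652 in vehicle libraries (unadjusted p = 0.0705), and its groups did not overlap.

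Of 22 lineage regulators 0 were called, 0 were higher and 4 were lower with an unadjusted p below 0.05 (2.85% of all genes were), and the median was -0.14. Mitf, the master regulator of melanocytes, had 1105, 737 and 914 CPM in DMBA libraries against 1086, 1033 and 899 in vehicle libraries (log2 fold change -0.13, 95% interval -0.46 to 0.20). Sox10, a neural crest factor upstream of Mitf, had 584, 555 and 528 CPM in DMBA libraries, 404, 525 and 558 in IR libraries and 481, 486 and 361 in vehicle libraries (log2 fold change 0.33, 95% interval -0.01 to 0.66). Mitf overlapped between the groups, and Sox10 was higher in each DMBA library than in each vehicle library. Kit, the receptor that melanocytes depend on, had 1313, 1319 and 1181 CPM in DMBA libraries, 1523, 1850.5 and 2008 in IR libraries and 1600.1, 1555 and 1542 in vehicle libraries. Each DMBA library was lower than each of the other 6, at a log2 fold change of -0.30 ± 0.13 against vehicle that did not pass (edgeR adjusted p = 0.718). Rb1, the retinoblastoma gene, had 56.8, 63.5 and 59.7 CPM in DMBA libraries, 94.2, 131 and 101 in IR libraries and 90.6, 97.2 and 95.7 in vehicle libraries. It too was lowest in all DMBA libraries (log2 fold change -0.66 ± 0.19 against vehicle, edgeR adjusted p = 0.518), and against IR the difference passed (log2 fold change -0.86 ± 0.19, edgeR adjusted p = 0.0272). Sox5 and Gli3, a pair of developmental transcription factors, were the other 2 lower ones, at log2 fold changes of -0.49 ± 0.20 and -0.43 ± 0.18. These sit beside the higher keratinocyte sums of DMBA libraries, and the part of those in the values was not tested.

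Of 28 genes of arachidonic acid and eicosanoid metabolism 1 was called, Plcg2, 7 were higher and 1 was lower with an unadjusted p below 0.05, 9 did not overlap in the higher direction, and the median log2 fold change was 0.52. Over all genes 0.0374% were called, 3.85% were higher, 2.85% lower and 7.51% apart in the higher direction. Plcg2 is the signalling phospholipase C described above and not itself an eicosanoid enzyme. The list was drawn up with earlier results of these data known, so its call says nothing of eicosanoid synthesis. With no count filter 3 were called, all higher (Plcg2, Pla2g2f and Ptgs1), where 0.474% of all genes were. Ptgs2, the inducible cyclooxygenase, had 11.8, 24.5 and 20.7 CPM in DMBA libraries, 1.75, 0 and 4.76 in IR libraries and 1.84, 8.75 and 3.74 in vehicle libraries (log2 fold change 1.99 ± 0.85, edgeR adjusted p = 0.717). Ptgs1, the constitutive one, had 30.6, 53.7 and 29.1 CPM in DMBA libraries, 48.7, 6.23 and 14.7 in IR libraries and 12.5, 15.9 and 15.4 in vehicle libraries (log2 fold change 1.37 ± 0.51, edgeR adjusted p = 0.651). Both were higher in each DMBA library than in each vehicle library without passing, but IR 1 lay inside the DMBA range for Ptgs1 and below it for Ptgs2. Pla2g4a, the phospholipase that frees arachidonic acid, had 14.4, 13.1 and 19.5 CPM in DMBA libraries, 12.5, 1.76 and 10.4 in IR libraries and 3.56, 3.77 and 8.48 in vehicle libraries. Pla2g2f, a secreted phospholipase of the upper epidermis, had 54.2, 81.0 and 43.0 CPM in DMBA libraries, 54.6, 15.7 and 26.2 in IR libraries and 23.0, 29.9 and 29.2 in vehicle libraries. Neither passed (edgeR adjusted p = 0.681 and 0.565). Tbxas1, thromboxane synthase, was the 1 lower gene, with 0 counts in DMBA libraries against 0, 33 and 15 in vehicle libraries.

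Among the signalling and immune lists Isg20 was the 1 gene that passed against vehicle. Of 22 outputs and feedback genes of the MAPK pathway, which DMBA tumours often activate through Ras mutation, 0 were called. With an unadjusted p below 0.05, 2 were higher (Ier3 and Fosl1), where 3.85% of all genes were. Ier3, an early survival gene, had 98.9, 95.8 and 94.2 CPM in DMBA libraries against 52.9, 76.7 and 46.3 in vehicle libraries, all DMBA values above all vehicle values. Of 24 immediate early genes 0 were called, by edgeR or with an unadjusted p below 0.05. Of 17 NF-kB response genes 0 were called against vehicle and 9 were called lower than IR (0.878% of all genes were). Nfkbia, the inhibitor that NF-kB induces, had 165, 158 and 210.3 CPM in DMBA libraries, 427, 449 and 369.8 in IR libraries and 133, 144 and 158 in vehicle libraries. Of 26 interferon-stimulated genes 1 was called against vehicle, Isg20 (0.0374% of all genes were), with a list median of -0.16. With an unadjusted p below 0.05, 1 was higher and 1 lower than vehicle (3.85 and 2.85% of all genes were). Against IR, 3 were called lower (0.878% of all genes were). Irf1, an interferon-induced transcription factor, had 186, 219 and 200.2 CPM in DMBA libraries, 465, 418 and 379.8 in IR libraries and 201, 249 and 284 in vehicle libraries.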

How the data were processed

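Per the labels' protocols, a column kit gave total RNA and a stranded SMARTer kit the libraries. The submitters' processing notes name HTSeq 0.6.1, HISAT2 2.0.1, cutadapt 1.9.1 and bcl2fastq 2.17.1.14, with no role. No build, annotation release or use of strand in counting is named there, so no position from the deposited table is printed. The authors' table gives raw read counts, as whole numbers, for every gene in each library. It also holds FPKM that the authors derived from those counts, which came out within 0.0051 of a recalculation from counts, exonic lengths and library totals. Of 55359 genes, 1438 have no symbol and took 0.121 to 0.175% of a library's counts. Mitochondrial genes took 5.05 to 7.19%, and library correlations of log2 CPM lay between 0.887 and 0.947.

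Group and replicate number come from the sample titles. Counts were filtered with filterByExpr (16051 genes kept), scaled by TMM and tested with edgeR 4.0.16 (R 4.3.3) by the quasi-likelihood test, two-sided, with 1 mean per group over 9 libraries. P-values were adjusted over all genes by Benjamini-Hochberg, with calls at an adjusted p below 0.05. The SE of a log2 fold change is its size over the square root of F. Alternatives changed the filter, the scaling, the libraries, the replicate block, a basal keratinocyte covariate and the test, with DESeq2 1.42.0 and limma 3.58.1 on log2(FPKM + 1) or log2(FPKM + 0.1). A fit on 7 libraries and the 6-library fits with a library left out were chosen after seeing the data. The titles give replicate numbers and state no pairing, so the main fit used none. Same-numbered DMBA and vehicle libraries had correlations of deviations of 0.003, -0.019 and 0.003. Same-numbered DMBA and IR libraries had -0.116, -0.075 and 0.017. Such values cannot decide whether the libraries were paired. Libraries of the same group were not duplicates: the chi-square over its degrees of freedom was 14.95 to 36.29.

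The comparison, its 30 gene lists and the rule for named genes were chosen with earlier results of these data known, and no list was tested as a set. The rule names every called gene, the 8 highest and 8 lowest others with an unadjusted p below 0.01, groups apart and FPKM averaging 5 or more in the higher group, up to 5 members per list by smallest p, a fixed set of pigment, AhR, keratin and p53 genes, and the 8 p53 targets with the smallest p against IR. Genes named outside it were chosen after their values were seen: Ugt1a7c, Cyp2s1, Cyp1a2, Gsta1, Gsta2, Lor, Flg, Cdkn2a, Lrrfip1, Slc15a2 and the genes called with 6 libraries or with no count filter. On simulated counts for the 16051 genes the test recovered 21.7, 57.6 and 76.9% of 2-, 4- and 8-fold changes between DMBA and vehicle, with 9 false calls. The simulation changed 69, 66 and 65 genes by these folds in DMBA alone and gave IR the means of vehicle. More genes passed in it than in the data, which eases the adjusted threshold, so these rates may overstate recovery in the data. Intervals of count ratios and floors cover counting error only. Promoters are RefSeq's, build GRCm38.p6. Python 3.11.15, pandas 2.3.3 and matplotlib 3.10.9 were used for tables and plots.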

Additional observations from a re-analysis of the deposited data

How the results depend on the processing

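The direction of each of the 6 called genes held under all 17 alternatives, and the number of genes called did not. For DMBA against vehicle, where 6 were called, all higher, no count filter gave 159 calls (147 higher, 12 lower), the 6-library fit 44 (44 higher), DESeq2 23 (21 higher, 2 lower) and limma 1 (1 higher) with either pseudocount. Leaving out 1 library gave 2 to 5 calls, 2 to 5 higher and 0 to 1 lower, the 1 lower gene being Slc15a2 without DMBA 2. For DMBA against IR, where 157 were called, no filter gave 371 (128 higher, 243 lower), DESeq2 310 (65 higher, 245 lower), limma on log2(FPKM + 1) 89 (78 lower) and on log2(FPKM + 0.1) 73 (10 higher, 63 lower). Leaving out 1 library there gave 96 to 421 calls, 11 to 215 higher and 85 to 206 lower, with the highest total without IR 1. In the 6-library fit, leaving out 1 library gave 18 to 73 calls, 0 to 7 basal and 3 to 7 differentiated markers. The cause of these moves was not tested.

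Genes near 0 changed sign. Ahr was 0.031 and 0.033 under limma, and ranged from -0.142 to 0.087 over all 17 alternatives. Over the same alternatives Mitf ranged from -0.282 to 0.003, Trp53 from -0.357 to 0.01, Ephx1 from -0.047 to 0.598 and Hmox1 from -0.399 to 0.518. Hmox1 was at -0.052 on 7 libraries. Krt5 was -0.062 with the basal marker covariate, which holds Krt5 itself. The replicate block gave 5 calls against vehicle, 4 of them shared with the 6, and 142 against IR. Plcg2 and Tiparp were not called under it (edgeR adjusted p = 0.0742 and 0.101). Its other call was Btbd11 (log2 fold change 1.634, edgeR adjusted p = 0.0422). The main fit called neither Btbd11 nor Xdh (edgeR adjusted p = 0.136 and 0.0705). Both were called higher with no count filter, with 6 libraries and by DESeq2. With 3 libraries a group of 6938406 to 8156905 counts, changes of 2-fold were mostly missed on simulated counts, so lists with 0 calls set no small limit on single genes.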
